A study of Homo sapiens with 8 samples.

Results

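The motor of the non-muscle cell cortex and the actin it pulls on were described at the transcript level for 10 genes, chosen by name from 58735 in the deposited table. They are the nonmuscle myosin II heavy chains MYH9, MYH10 and MYH14, the light chains MYL6, MYL9, MYL12A and MYL12B, the kinase MYLK, and the cytoplasmic actins ACTB and ACTG1. RNA-seq libraries were made from 2 groups of 4 samples labelled as A549 cells, a widely used line from a human lung adenocarcinoma. EV cells carried the empty lentiviral vector, and KRT19-OVE cells a lentivirus encoding Flag-tagged KRT19, an epithelial keratin. Both were kept as stable lines after puromycin selection, so each group is 1 transduced line, and the promoter driving KRT19 is not given in the sources used here. Nothing in the labels says that the 4 libraries of a group came from separate cultures, so p-values measure the spread between these libraries, which may be technical.

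Nonmuscle myosin II is a hexamer of a pair of heavy chains, a pair of essential light chains and a pair of regulatory light chains. Phosphorylation of the regulatory light chain, by myosin light chain kinase among others, switches on filament assembly and the pull on actin. This motor tightens the cell cortex, stress fibres and the cleavage furrow, and each heavy chain gene gives its own isoform of the motor (IIA from MYH9, IIB from MYH10, IIC from MYH14). In the study, MYH9 was followed as a protein that binds KRT19, and immunoblots were reported to show more MYH9 protein in A549 cells overexpressing KRT19. ACTB was the reference transcript for RT-PCR. The transcript levels of MYH9 and ACTB in the 2 groups were therefore the question here, and these libraries do not measure protein.

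The libraries held 14073065 to 17054364 counts, and the 10 genes took 1.15% to 1.26% of them. KRT19 had 1, 3, 2 and 5 counts in EV replicates 1 to 4 and 5147, 4353, 4923 and 4696 counts in KRT19-OVE replicates 1 to 4. The labels require the higher counts in KRT19-OVE but not the near absence in EV. The study reports immunoprecipitation of endogenous KRT19 from A549 cells. Of 8 markers of epithelium or A549, KRT8, KRT18 and NQO1 were abundant (189 CPM or more), but EPCAM had at most 3 counts, CDH1 at most 1, ALDH1A1 at most 3, AKR1B10 at most 14 and AKR1C1 at most 22. These 5 defining markers are absent or near 0, which goes against the label, and the alveolar genes SFTPC and SFTPB had 0 counts. The extraction text of the labels speaks of retina, but of the retina markers RCVRN and SAG had 0 counts in all 8 libraries, CRX at most 1, PDE6A 1 to 6 and OPN1SW 22 to 30. KRT19-OVE replicate 3 stood apart from its group: pairs with it differed by 7.83 to 13.8 times the counting variance over genes, against 2.82 to 6.58 for the 9 other pairs within a group. Fold changes with and without it are given below.

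The actins drew the most counts of the 10, ranking 7 (ACTG1) and 8 (ACTB) among all genes by mean count, not corrected for length. Both encode cytoplasmic actin, the filament on which myosin II moves, and their proteins are nearly identical while the genes lie on different chromosomes, ACTB at chr7:5527147-5563784 and ACTG1 at chr17:81509971-81523847 (GRCh38, minus strand). The first 60 coding bases from GENCODE 29 are shown because whether reads of the 2 genes can be told apart decides every comparison between them. Capitals mark the 10 positions at which the 2 differ. ACTB lies at chr7:5529598-5529657 and ACTG1 at chr17:81512295-81512354, both on the minus strand.
ACTB: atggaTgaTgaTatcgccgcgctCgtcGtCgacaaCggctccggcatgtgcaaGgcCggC
ACTG1: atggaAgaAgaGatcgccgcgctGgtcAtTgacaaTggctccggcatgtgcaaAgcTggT
Over the 1125 coding bases, 91.3% were identical and the longest identical run was 59 bases. Of the 75-base words of the principal coding transcript, 2.71% in ACTB and 0% in ACTG1 also occurred in another gene, those of ACTB in genes such as ACTBP2 and POTEE. Rows of named pseudogenes held 0.0335% of the ACTB count (10 rows) and 0.0354% of the ACTG1 count (20 rows).

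ACTB was at 4379, 4396, 4598 and 4537 CPM in EV replicates 1 to 4 and at 4738, 4461, 4439.9 and 4644 CPM in KRT19-OVE replicates 1 to 4 (CPM, gene counts relative to the TMM-scaled library size). The groups overlapped, with means of 4478 ± 107 and 4571 ± 144 CPM (SD, n = 4 each). On the log2 scale, KRT19-OVE over EV, the fold change was 0.030 ± 0.043 (SE, edgeR adjusted p = 0.955), a difference of 2.08% with a 95% interval from -4.09% to 8.64%. Here and below, fewer cells expressing a gene and less RNA per cell cannot be told apart in bulk RNA. ACTG1 was at 4791, 4670.0, 5024 and 4966 CPM in EV and at 5085, 4763, 4233 and 4863 CPM in KRT19-OVE libraries. The highest and the lowest value both belonged to KRT19-OVE, replicates 1 and 3. Means were 4863 ± 162 and 4736 ± 361 CPM (SD, n = 4 each), which gave a log2 fold change of -0.038 ± 0.053 (SE, edgeR adjusted p = 0.955). Without KRT19-OVE replicate 3 it was 0.012, so the direction for ACTG1 rests on that library.

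The ratio of ACTB to ACTG1 within a library needs no scaling between libraries. Per kilobase of summed exon length, it was 0.778, 0.801, 0.778 and 0.777 in EV and 0.793, 0.797, 0.892 and 0.812 in KRT19-OVE libraries. EV replicates 1, 3 and 4 lay together below all KRT19-OVE libraries, EV replicate 2 lay among them, and KRT19-OVE replicate 3 was far above the rest. The difference in log2 ratio was 0.070 (95% interval -0.031 to 0.17, exact permutation p = 0.0857, 0.343 after Benjamini-Hochberg adjustment over the 4 ratios compared), and 0.031 without KRT19-OVE replicate 3. ACTB made up 43.9% ± 0.359 of actin transcripts per kilobase in EV and 45.1% ± 1.37 in KRT19-OVE libraries (SD, n = 4 each). This share depends on the length used, and with the principal coding transcript in place of summed exon length it was 52.0% and 53.2%, so which actin held the larger share turned.

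Because the study's RT-PCR was scaled to ACTB, values per 1000 ACTB counts were also computed. MYH9 stood at 257 ± 8.19 in EV and 252 ± 9.44 in KRT19-OVE libraries per 1000 ACTB counts, and the groups overlapped. CDKN1A, which encodes the cell cycle inhibitor p21, stood at 47.3 ± 1.65 (45.1 to 49.0) in EV and 41.1 ± 1.85 (39.0 to 43.5) in KRT19-OVE libraries (SD, n = 4 each). Its groups did not overlap. The log2 difference was -0.20 relative to ACTB and -0.17 in TMM-scaled CPM (exact permutation p = 0.0286 relative to ACTB, unadjusted, the smallest that 4 against 4 libraries allow). Of all 14621 genes tested, 3.44% had groups that did not overlap in CPM, 1.81% with KRT19-OVE lower, and these shares are not relative to ACTB. In edgeR, KRT19 alone passed the adjusted threshold, so CDKN1A did not. The study had named CDKN1A from these same libraries, so its difference here is not an independent result.

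**Figure D1:**
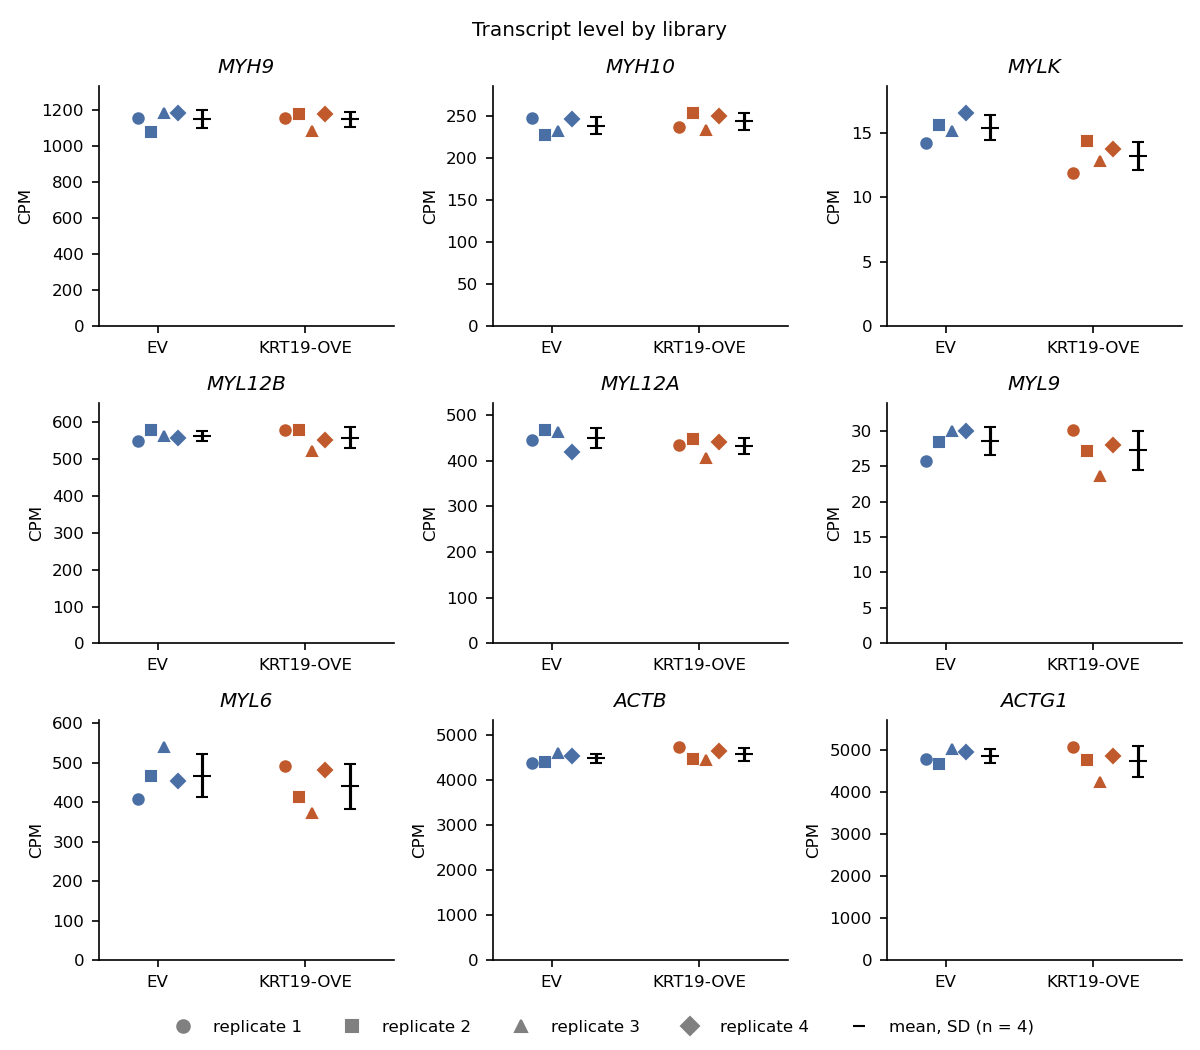
Transcript level in CPM (y axes from 0) of the 9 genes that passed the filter on low counts, by group (x axis); each point is 1 library, its shape the replicate number, and the bar the mean with SD (n = 4). The groups overlap in every panel, and for MYLK only EV replicate 1 (14.2 CPM) and KRT19-OVE replicate 2 (14.4 CPM) cross.

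MYH9, the heavy chain of myosin IIA (chr22:36281277-36388067, minus strand), ranked 71 among all genes by mean count. It was at 1157, 1080.3, 1186 and 1188 CPM in EV replicates 1 to 4 and at 1157, 1179, 1086 and 1178 CPM in KRT19-OVE replicates 1 to 4. In each group 1 library sat low, EV replicate 2 and KRT19-OVE replicate 3, and the other 3 lay between 1157 and 1188 CPM. Means were 1153 ± 50.2 CPM in EV and 1150 ± 43.9 CPM in KRT19-OVE (SD, n = 4 each), with a log2 fold change of -0.0034 ± 0.047 (SE, edgeR adjusted p = 0.994, exact permutation p = 0.771). The 95% interval of the difference ran from -6.85% to 6.86%. Its libraries had 16577 to 20186 counts, for which counting error alone gives a coefficient of variation of 0.737%, while the observed ones were 4.35% in EV and 3.82% in KRT19-OVE. Depth was therefore not what limited this comparison.

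The sense strand that the study lists for its siRNA against MYH9 is shown for its near match to another heavy chain, although the siRNA was not used in these libraries. This strand matched MYH9 transcripts alone, in coding exon 7 at chr22:36321802-36321820 (minus strand), and the closest of the other 9 genes was MYH14 with 1 mismatch. The antisense strand listed with it is not its complement and matched MYH9 elsewhere, in exon 2 at chr22:36349210-36349228, with at least 6 mismatches to the other 9 genes, so the targeted site cannot be read from the pair.
MYH9 siRNA sense: gcaaauucauucgcaucaa
For ACTB, the reverse RT-PCR primer matched ACTB alone, in exon 4 at chr7:5528661-5528681 (minus strand), with 4 mismatches to ACTG1.
ACTB reverse primer: gatagcacagcctggatagca

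MYH10, the heavy chain of myosin IIB (chr17:8474205-8630761, minus strand), was at 248, 228, 232 and 246 CPM in EV and at 237, 254, 234 and 250.3 CPM in KRT19-OVE libraries. Both groups spread over about the same span, and the means were 238 ± 10.1 and 244 ± 9.87 CPM (SD, n = 4 each). This gave a log2 fold change of 0.032 ± 0.049 (SE, edgeR adjusted p = 0.957), with a 95% interval of the difference from -4.83% to 9.90%. NDEL1, which overlaps MYH10 on the opposite strand, held 19.0% as many counts. MYH14, the heavy chain of myosin IIC (chr19:50188186-50310544, plus strand), had 2, 0, 0 and 1 counts in EV and 0, 1, 2 and 0 counts in KRT19-OVE libraries. It was at or under the floor of 3 counts everywhere (0.176 to 0.213 CPM, counting error only) and was not tested, so no difference was detectable at this depth.

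Per kilobase, MYH9 made up 82.9% ± 0.564 of heavy chain transcripts in EV and 82.5% ± 0.350 in KRT19-OVE libraries, and MYH10 17.1% and 17.5% (SD, n = 4 each). MYH9 exceeded MYH10 in every library, by 4.64 to 5.12 times per kilobase. The log2 ratio differed by -0.036 between groups (95% interval -0.12 to 0.047, exact permutation p = 0.343, adjusted 0.371). The MYH9 to ACTB ratio differed by -0.033 (95% interval -0.12 to 0.054, exact permutation p = 0.371, adjusted 0.371). Neither ratio separated the groups.

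**Figure D2:**
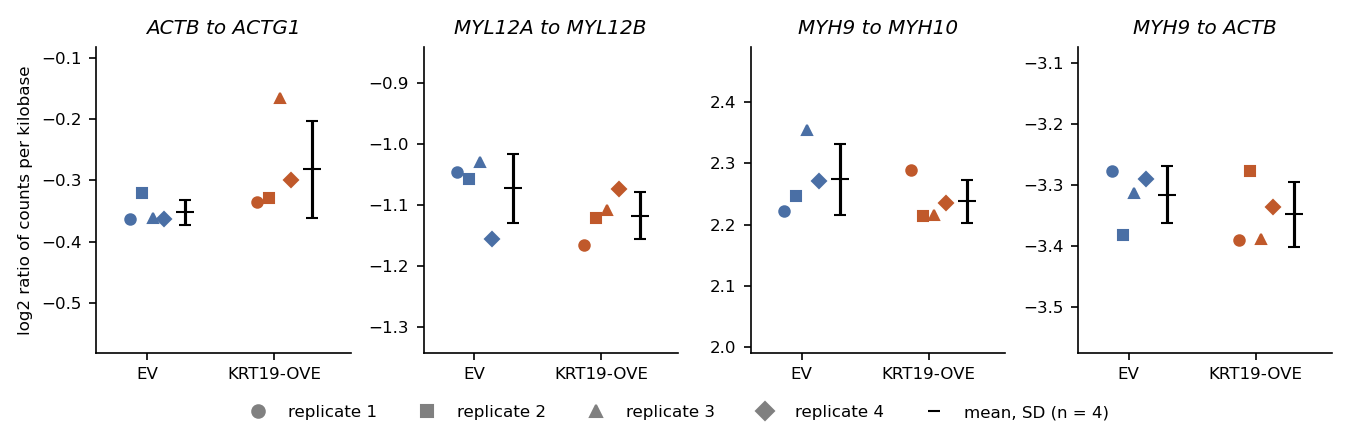
Log2 ratio of counts per kilobase for 4 pairs of genes (panels with equal y spans), by group; points are libraries with the replicate number as shape, bars the mean with SD (n = 4). The groups overlap in all 4 panels, and KRT19-OVE replicate 3 lies far above the other libraries for ACTB to ACTG1.

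The regulatory light chains carry the phosphorylation site that turns the motor on. MYL12A (chr18:3247481-3256236) and MYL12B (chr18:3261479-3278431) are neighbours on the plus strand of chromosome 18, while MYL9 lies at chr20:36541484-36551447 on the plus strand. The last 60 coding bases are shown because MYL12A and MYL12B are identical there, so that a read inside this stretch cannot be assigned to 1 of them, while MYL9 differs at 10 positions, marked in capitals in all 3. They lie at chr18:3255856-3255915, chr18:3277875-3277934 and chr20:36549187-36549246.
MYL12A: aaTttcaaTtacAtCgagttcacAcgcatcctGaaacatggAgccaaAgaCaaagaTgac
MYL12B: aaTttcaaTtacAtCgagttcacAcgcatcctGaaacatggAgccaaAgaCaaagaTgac
MYL9: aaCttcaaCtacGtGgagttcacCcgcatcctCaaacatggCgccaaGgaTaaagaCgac
Over the whole coding sequence, MYL12A and MYL12B were 95.2% identical with 22 mismatches and a longest identical run of 77 bases. Against MYL9, identity was 78.9% for MYL12A and 80.8% for MYL12B. Of the 75-base words, 1.13% in MYL12A and 0.511% in MYL12B were shared with another gene, so that most reads of that length, matched exactly, would belong to 1 gene.

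MYL12B was at 548, 580.0, 564 and 557 CPM in EV and at 580.1, 579, 522 and 553 CPM in KRT19-OVE libraries. Its means were 562 ± 13.4 and 558 ± 27.7 CPM (SD, n = 4 each), with a log2 fold change of -0.010 ± 0.047 (SE, edgeR adjusted p = 0.982) that became 0.021 without KRT19-OVE replicate 3. All KRT19-OVE libraries but replicate 3 lay within or at the edge of the EV range. MYL12A was at 446, 468, 464 and 419.9 CPM in EV and at 434, 447, 406 and 441 CPM in KRT19-OVE libraries, a log2 fold change of -0.057 ± 0.049 (SE, edgeR adjusted p = 0.923). EV replicate 4 lay below 3 of the KRT19-OVE libraries, and without KRT19-OVE replicate 3 the log2 fold change was -0.028. MYL9, the regulatory chain that dominates in smooth muscle, was at 25.8, 28.4, 30.0 and 29.9 CPM in EV and at 30.1, 27.1, 23.7 and 27.9 CPM in KRT19-OVE libraries. Its groups overlapped too, and the log2 fold change of -0.071 ± 0.079 (SE, edgeR adjusted p = 0.939) was -0.0074 without KRT19-OVE replicate 3.

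Among regulatory chains, MYL12B held 66.2% and 66.9% of transcripts per kilobase in EV and KRT19-OVE libraries, MYL12A 31.5% and 30.8% and MYL9 2.30% and 2.23%. With the longest annotated or the principal coding transcript as the length, the shares were 54.5% and 55.3%, 44.3% and 43.5%, and 1.23% and 1.19%, and the mean MYL12A to MYL12B ratio was 0.812 in EV and 0.787 in KRT19-OVE libraries. Per kilobase of summed exon length, the MYL12A to MYL12B ratio was 0.484, 0.481, 0.490 and 0.449 in EV and 0.446, 0.460, 0.464 and 0.475 in KRT19-OVE libraries. EV replicate 4 fell among the KRT19-OVE libraries, and the log2 difference was -0.045 (95% interval -0.13 to 0.038, exact permutation p = 0.257, adjusted 0.371).

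MYL6, the essential light chain that braces the lever arm of the heavy chain (chr12:56158161-56163496, plus strand), varied most between replicates among the 9 genes tested. It was at 409.6, 466, 541 and 455 CPM in EV and at 493, 414, 374 and 481 CPM in KRT19-OVE libraries. The groups spread across each other, from 374 CPM in KRT19-OVE replicate 3 to 541 CPM in EV replicate 3. The coefficient of variation was 11.7% in EV and 12.8% in KRT19-OVE against 1.17% from counting alone, so the log2 fold change of -0.087 ± 0.085 (SE, edgeR adjusted p = 0.927) had a wide interval, from -16.8% to 6.59%. It was -0.016 without KRT19-OVE replicate 3, -0.0093 without EV replicate 3, and -0.15 without EV replicate 1 or without KRT19-OVE replicate 1. MYL6 overlaps SMARCC2 on the opposite strand, whose count was 34.2% of that of MYL6, and MYL6B on the same strand (15.5%). How strand was handled in the counting is not given in the sources used here, so part of these counts could belong to the neighbour, and the share was not tested.

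MYLK, the calcium and calmodulin dependent kinase of the regulatory light chain (chr3:123610049-123884331, minus strand), was the least abundant gene tested. It had 213, 259, 249 and 281 counts in EV and 196, 202, 219 and 207 counts in KRT19-OVE libraries, or 14.2, 15.6, 15.1 and 16.5 CPM against 11.8, 14.4, 12.8 and 13.7 CPM. KRT19-OVE libraries lay lower, and the groups overlapped by 1 pair of libraries. The means were 15.4 ± 0.980 and 13.2 ± 1.10 CPM (SD, n = 4 each). On the log2 scale the difference was -0.23 ± 0.089 (SE, edgeR p = 0.0216, adjusted p = 0.906, exact permutation p = 0.0571), a difference of -14.5% with a 95% interval from -24.9% to -2.56%. It ranked 333 by p among all genes and did not pass the adjusted threshold. The unadjusted p was 0.0726 both without EV replicate 4 and without KRT19-OVE replicate 1. Counting error alone accounted for a coefficient of variation of 6.62%, about the size of that observed (6.38% and 8.33%). The antisense row MYLK-AS1 held 5.81% as many counts, and with both rows summed, a choice added after the data were seen, the log2 fold change was -0.21.

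Of the 9 genes tested, 1 had an unadjusted p under 0.05, beside 5.41% of all 14621 genes tested (2.85% higher and 2.56% lower in KRT19-OVE, 417 and 374 genes; with upper-quartile scaling 322 of 796 were higher and with scaling to ACTB 156 of 839). Groups did not overlap for 0 of the 9, beside 3.44% of all genes (1.81% with KRT19-OVE lower). None passed the adjusted threshold, which 0.00684% of all genes (KRT19 itself) did, and adjusted p-values in edgeR lay between 0.906 and 0.994. In DESeq2 and limma-voom too, 0 of the 9 passed the adjusted threshold and 1 had an unadjusted p under 0.05. Fold changes were above 0 for ACTB and MYH10 and below 0 for the other 7 (for MYH9, MYL12B and ACTG1 the sign depended on a setting or a library), with a median of -0.038 beside 0.0051 over all genes. Without KRT19-OVE replicate 3 the median was 0.012, with 5 of the 9 above 0, and without EV replicate 3 it was -0.0093. Absolute log2 fold changes had a median of 0.038, smaller than the 0.068 over all genes. Apart from MYLK, every 95% interval included 0, and these 8 intervals together reached from -16.8% to 9.90%. Differences of a size inside these intervals are not told apart from 0 by these libraries.

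**Figure D3:**
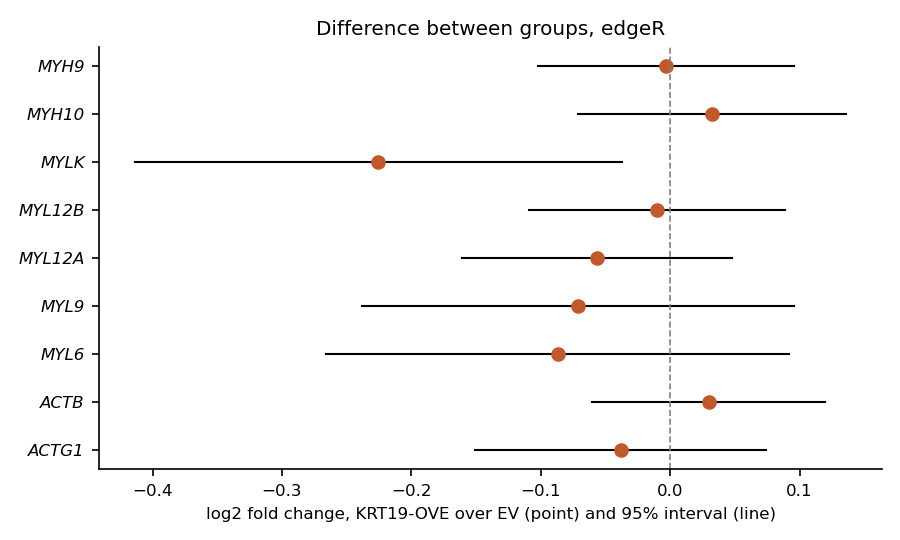
Log2 fold change, KRT19-OVE over EV (x axis), from edgeR for the 9 genes tested; points are estimates and lines 95% intervals, with the dashed line at 0. Only the MYLK interval leaves out 0.

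KRT19-OVE replicate 3 had the lowest level of its group for 8 of the 9 genes, all but MYLK, while it was lowest for 32.9% of all genes tested. EV replicate 3 was lowest of its group for 0 of the 9 and highest for 4 (29.9% and 29.4% of all genes), and EV replicate 1 lowest for 5 (27.4%). KRT19-OVE replicates 1 and 2 were highest for 5 and 4 (27.9% and 20.8%). The deviations of KRT19-OVE replicate 3 were largest for MYL6, MYL9 and ACTG1. On the log2 scale, the fold changes without this library were 0.023 for MYH9, 0.021 for MYL12B, 0.012 for ACTG1, 0.044 for ACTB, 0.052 for MYH10, -0.028 for MYL12A, -0.0074 for MYL9, -0.016 for MYL6 and -0.21 for MYLK.

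**Figure D4:**
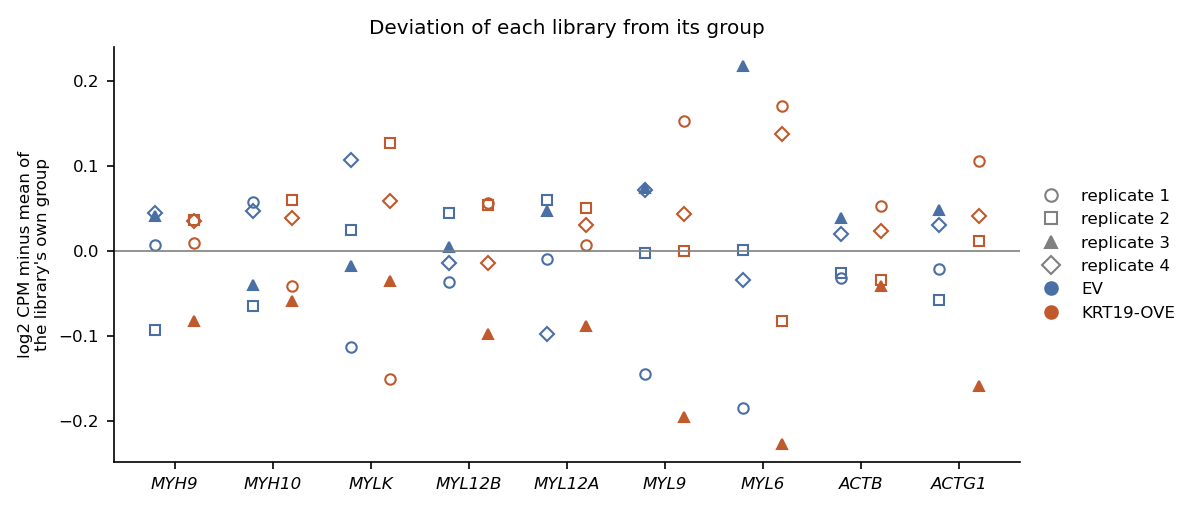
Log2 CPM of each library minus the mean of its own group (y axis) for the 9 genes tested (x axis); colours are groups, shapes replicate numbers, and the filled triangles replicate 3 of either group. KRT19-OVE replicate 3 is the lowest of its group for every gene but MYLK, and EV replicate 3 the highest of its group for 4.

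Levels of the 10 genes were set in order per kilobase, first of summed exon length, as CPM per kilobase over all 8 libraries (mean ± SD). The order ran ACTG1 1603 ± 89.5, ACTB 1286 ± 36.3, MYL12B 290.0 ± 10.5, MYL12A 136 ± 6.41, MYH9 128 ± 4.85, MYL6 98.5 ± 11.6, MYH10 26.7 ± 1.08, MYL9 9.88 ± 0.816, MYLK 0.644 ± 0.0683 and MYH14 0.00457 CPM per kilobase. Ranges of neighbours over the libraries were apart except for MYL12A and MYH9, whose ranges overlapped at this length, with MYL12A above in 7 of 8 libraries. The order depends on the length assumed for each gene. With the longest annotated transcript, MYL6 passed MYH9, and the ranges of ACTG1 and ACTB overlapped, as did those of MYL12A and MYL6. With this length and the next, MYL12A (359 CPM per kilobase) stood above MYH9 (152) with ranges apart. With the principal coding transcript, a choice added after the data were seen, 6 genes changed place: ACTB (2355 CPM per kilobase) stood above ACTG1 (2127), and MYL6 (504) above MYL12A (359), while the ranges of MYL6 and MYL12B (449) overlapped with MYL6 above in 6 of 8 libraries. For MYL6 the 3 lengths were 4609, 1564 and 901 bases.

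**Figure D5:**
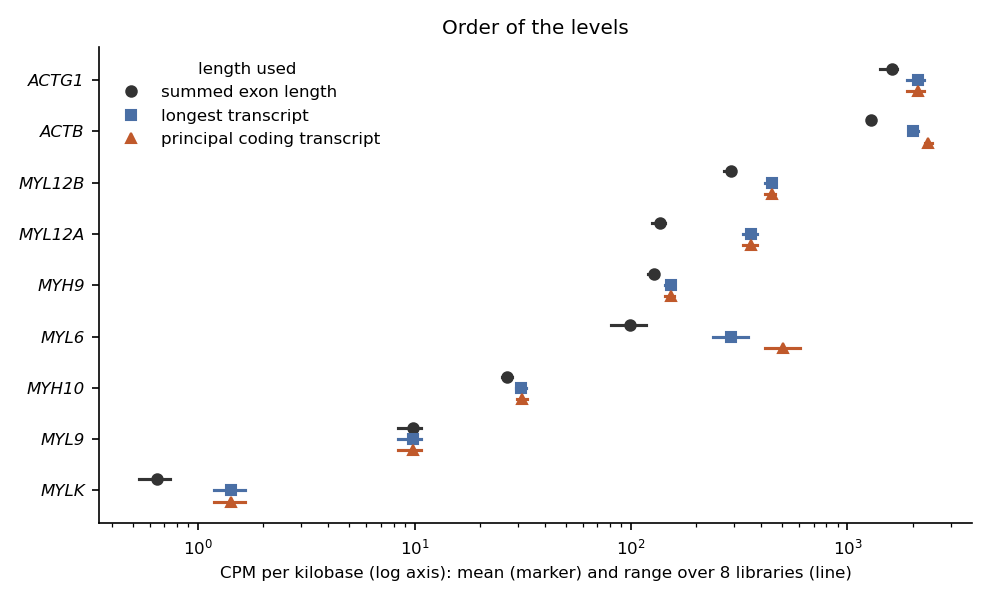
Level in CPM per kilobase (x axis, log scale) of the 9 genes tested under 3 gene lengths; markers are means and lines ranges over the 8 libraries. MYL6 moves most, from 98.5 to 504 CPM per kilobase, while the place of MYH10, MYL9 and MYLK at the low end is the same under all 3.

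Over the 8 libraries, the genes whose log2 CPM followed that of MYH9 most closely, among 9502 genes of at least 10 CPM with the members excepted, were NOTCH1 (Pearson r = 0.990), CIC (0.976), RNF34 (0.973), PTBP1 (0.971) and ITPRIP (0.962). Spearman rank correlations were 0.905, 0.833, 0.952, 0.976 and 0.571 in the same order. The points share libraries and their scaling, so this describes these 8 libraries alone. The lowest log2 fold change among these 5 genes was -0.021 (NOTCH1).

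The other genes of the pathway were read from 5 lists of 125 genes, of which 107 were tested. In all, 10 had an unadjusted p under 0.05, 5 higher and 5 lower in KRT19-OVE, or 9.35% beside 5.41% of all genes, and 0 passed the adjusted threshold (edgeR, lowest adjusted p = 0.868). Without EV replicate 3 this count was 4 and without EV replicate 4 it was 6. Groups did not overlap for 5 of the 107, or 4.67% beside 3.44% of all genes. The median log2 fold change of the 107 was -0.011. Of 30 regulators of myosin tested, which include small GTPases, their exchange factors and the subunits of myosin phosphatase, 0 had an unadjusted p under 0.05, with 13 log2 fold changes above 0 and 17 below. The smallest p belonged to S100A4, a calcium-binding protein that binds the MYH9 heavy chain and loosens its filaments, at 7.32 ± 0.799 CPM in EV libraries and 6.29 ± 0.722 CPM in KRT19-OVE libraries (log2 fold change -0.22 ± 0.12, edgeR adjusted p = 0.906). The exchange factor ARHGEF2 had a log2 fold change of -0.085 ± 0.059 (SE), and the groups of both genes overlapped.

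Of 32 genes of actin filament assembly, 2 were higher and 2 lower at an unadjusted p under 0.05, or 12.5% beside 5.41% of all genes. The median log2 fold change was -0.015. TMSB4X, the thymosin that holds actin monomers in reserve, stood at 249 ± 15.2 CPM in EV libraries and 221 ± 15.1 CPM in KRT19-OVE libraries (log2 fold change -0.17 ± 0.058, edgeR adjusted p = 0.889). CAPZA1, a subunit of the protein that caps filament ends, ranged over 174 to 203 CPM in EV and 202 to 242 CPM in KRT19-OVE libraries (log2 fold change 0.16 ± 0.065, edgeR adjusted p = 0.906). The formin DIAPH3, which nucleates filaments, had a log2 fold change of 0.18 ± 0.081 (SE). The fourth, gelsolin (GSN), which severs filaments, had -0.12 ± 0.057 (SE) and is named after its value was seen. All 4 had overlapping groups. Those of ARPC1B, an Arp2/3 subunit (8.58 and 7.42 CPM), and of the profilin PFN2 (304 and 299 CPM), both also named after their values were seen, did not overlap and were lower in KRT19-OVE, but neither passed the unadjusted threshold.

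Of 27 genes of stress fibres and crosslinks, 2 were higher and 1 lower at an unadjusted p under 0.05, or 11.1% beside 5.41% of all genes. Log2 fold changes were above 0 for 9 and below 0 for 18, with a median of -0.011. ANLN, the anillin that anchors myosin at the cleavage furrow, was at 353 ± 23.2 and 398 ± 36.5 CPM in EV and KRT19-OVE libraries (log2 fold change 0.17 ± 0.064, edgeR adjusted p = 0.906). CALD1, whose caldesmon binds actin and inhibits the myosin motor, was at 20.2 ± 1.78 and 23.7 ± 2.85 CPM (log2 fold change 0.23 ± 0.091), and the adhesion protein gene VCL had -0.10 ± 0.045 (SE). Their groups overlapped as well. Of 10 genes around SRF and its actin-sensing MRTF partners, 1 was higher and 0 lower at an unadjusted p under 0.05. Log2 fold changes were above 0 for 5 and below 0 for 5, with a median of 0.013. The gene past the unadjusted threshold was CTGF, a matricellular growth factor, at 47.4 to 49.0 CPM in EV and 52.5 to 56.9 CPM in KRT19-OVE libraries (log2 fold change 0.19 ± 0.054, edgeR adjusted p = 0.868), whose groups did not overlap. SCAI, a corepressor of MRTF, had a log2 fold change of -0.18 and CYR61, a matricellular protein, one of 0.082, and neither passed the unadjusted threshold.

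Of 24 myosin and actin genes mostly known from muscle, 8 were tested, 5 had 0 counts in all libraries and 6 averaged above 1 CPM. MYL6B, an essential light chain also made outside muscle, was at 72.7 ± 3.67 and 67.7 ± 3.59 CPM in EV and KRT19-OVE libraries, and MYH15 was at 20.4 ± 1.43 and 19.5 ± 1.48 CPM (SD, n = 4 each). MYL4 was at 8.65 ± 0.422 and 9.85 ± 0.225 CPM without overlap but did not pass the unadjusted threshold. MYL5, at 5.72 ± 0.748 and 4.64 ± 0.452 CPM, and MYH11 were the 2 that did, both lower in KRT19-OVE. MYH11, the smooth muscle heavy chain, averaged 1.43 and 0.871 ± 0.215 CPM without overlap (log2 fold change -0.71 ± 0.25, edgeR adjusted p = 0.906), on 11 to 25 counts a library. Of the 75-base words of MYH9, 0.281% also occurred in MYH11, and MYH9 had 16577 to 20186 counts a library. Whether reads of MYH9 entered the MYH11 row was not tested. ACTA2, smooth muscle actin, was at 1.38 ± 0.441 and 1.20 ± 0.229 CPM. The summed level of 6 smooth muscle and fibroblast markers, MYH11 among them, was 4.22 to 4.93 CPM in EV and 2.91 to 4.53 CPM in KRT19-OVE libraries, with 2 of the 6 over 10 counts in any library, none at 0 in every library and COL1A2 at no more than 1 count. Without MYH11, the summed level of the other 5 was 2.66 to 3.41 CPM in EV and 2.12 to 3.86 CPM in KRT19-OVE libraries, so the KRT19-OVE range spanned that of EV.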

How the data were processed

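Per the labels, RNA of 8 libraries was prepared with a NEBNext Ultra kit. The submitters' processing notes list Bowtie 0.12.2, featureCounts 1.5.0-p3, DESeq2 and hg38, with no role or order, and the handling of strand and of reads matching several genes is not given in the sources used here. The authors deposited 1 table of raw counts per gene, without normalization. Groups and replicate numbers came from the sample titles.

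All 58735 genes entered filterByExpr, which kept 14621. Counts were fitted in edgeR 4.0.16 (R 4.3.3; TMM, glmQLFit, glmQLFTest, two-sided, Benjamini-Hochberg over all genes tested, threshold 0.05). Intervals of 95% came from the quasi-likelihood standard error. Single values and 4 within-library ratios were compared by exact permutation (two-sided, smallest p 0.0286). Log2 CPM used a prior count of 2. Levels per kilobase used the deposited gene length. Sequences and 75-base words came from GENCODE 29 (GRCh38), which held transcripts of 58676 of the gene identifiers. Floors of 3 counts cover counting error only, since no molecular identifiers are described. Alternatives were DESeq2 1.42.0, limma 3.58.1 voom, other scalings, filters, a replicate block, GC and length correction (splines, 5 degrees of freedom), other gene lengths, pseudogene rows added, and leaving out each library.

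The members and lists were chosen with earlier results of these data known. Named were all members, KRT19, CDKN1A relative to ACTB, the 3 smallest p-values of each list, muscle isoforms above 1 CPM and the 5 genes most correlated with MYH9. One gene that this rule names is not reported here.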

Additional observations from a re-analysis of the deposited data

Results flagged for a closer look

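Of 26 sets of 4 libraries examined for a library far from the others, 1 had such a library, and about 1.3 would by chance. The log2 ratio of ACTB to ACTG1 in EV replicate 2 was -0.32, against -0.36 in each of the other 3 EV libraries, and this gap took 0.942 of the range of the group.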

How the results depend on the processing

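MYLK was lower in KRT19-OVE under all 20 alternatives, with a log2 fold change between -0.27 and -0.18, p between 0.0129 and 0.0726 and adjusted p between 0.459 and 1.000. All of them reuse these libraries, and the pseudogene row of MYLK held 0 counts, so adding it could not change the MYLK counts. The count of members with an unadjusted p under 0.05 was 1 or, without EV replicate 4 or KRT19-OVE replicate 1, 0. MYH10, MYL6, MYL9, MYL12A and ACTB kept their direction under all alternatives and passed the adjusted threshold under none, with MYL6 between -0.15 and -0.0093, MYL9 between -0.13 and -0.0074, MYL12A between -0.088 and -0.028, MYH10 between 0.0098 and 0.052 and ACTB between 0.012 and 0.044 without 1 library. Beyond these ranges, MYH10 was 0.0032 with scaling to ACTB, MYL12A -0.013 with limma-voom and ACTB 0.046 with GC and length correction. Near 0, the direction turned for MYH9 with limma-voom (0.015), with a correction for GC and length, alone (0.012) or joined to a replicate block (0.012), and for MYL12B with limma-voom (0.0013), and the cause was not tested. Leaving out 1 library each moved MYH9 between -0.035 and 0.023 (above 0 without EV replicate 3 or 4 or KRT19-OVE replicate 3), MYL12B between -0.029 and 0.021 (above 0 without EV replicate 2 or KRT19-OVE replicate 3) and ACTG1 between -0.074 and 0.012. The 4 log2 ratios kept their direction under all 10 alternatives. Of these, the ratio of raw counts could not differ, since gene length cancels between groups. Adding pseudogene rows could not change MYH9 to MYH10, since these 2 genes have 0 such rows. Leaving out 1 library moved the difference for ACTB to ACTG1 between 0.031 (without KRT19-OVE replicate 3) and 0.088, and for MYL12A to MYL12B between -0.073 (without EV replicate 4) and -0.029. It moved that for MYH9 to MYH10 between -0.053 and -0.0087 (without EV replicate 3) and that for MYH9 to ACTB between -0.056 (without KRT19-OVE replicate 2) and -0.018. The number of all genes past the adjusted threshold went from 1 to 5 with DESeq2 and with GC and length correction, 8 with limma-voom, 9 with the correction and a replicate block, 71 with a looser filter (30250 genes tested) and 1 to 5 without 1 library, none of them a member. Genes of the lists with an unadjusted p under 0.05 went from 10 to 4 to 11 without 1 library, lowest without EV replicate 3. Replicate numbers did not pair the libraries (residual correlations of -0.159 to 0.0567), and the replicate block gave 6 list genes and 451 genes in all at an unadjusted p under 0.05, against 10 and 791 without it. With other gene lengths, 2 members (longest transcript) or 6 (principal coding transcript) changed place in the order of levels. MYH14 had too few counts for the filter (with the looser filter it was tested and did not pass), and for MYLK counting error alone was about the size of the spread.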
